A study of Rattus rattus with 24 samples.

Results

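Thyroid hormone in its active form, triiodothyronine (T3), was given for 96 hours to rat oligodendrocyte precursor cells (OPCs), and the resulting mRNA levels were compared to those of vehicle control cultures of the same age. The comparison rests on 6 of the 24 arrays of the series, chosen by their labels alone: 3 arrays of cultures with T3 at 45 nM and 3 arrays of control cultures, paired by replicate number. Each of the 3 replicates was a separate preparation of cells that supplied every condition of the series. Cultures with T3 at 45 nM for 48 hours and control cultures at 48 hours, again 3 arrays each, are used below only to show where the T3 response at 96 hours differed. Cultures with quetiapine at 1 μM for 96 hours, also 3 arrays, serve the same purpose. The quetiapine arrays at 96 hours also enter the fit of T3 against control and add to its estimate of the spread. Cultures with both compounds at 96 hours, T3 at 45 nM and quetiapine at 1 μM, only add to that estimate. Cultures at 48 hours with quetiapine at 1 μM, or with both compounds at these doses, add in the same way to the fits that use the 48 hour arrays.

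OPCs were taken from the cortices of postnatal rat pups, which the labels list as Rattus rattus and the study's methods as Sprague Dawley, by magnetic selection for the surface antigen A2B5. They were expanded with the growth factor PDGF before the compounds or the DMSO vehicle were added. The culture supplement holds a small amount of T3 by the study's own account, so the control cultures were low in hormone rather than free of it. Selection for A2B5 does not give a pure population. Markers of the lineage were present in every array, among them Olig1, a transcription factor of OPCs and oligodendrocytes, with log2 values of 13.23, 13.29 and 13.36 in T3 cultures and 13.29, 13.07 and 13.09 in control cultures. Genes of astrocytes were present as well, and Gfap, the intermediate filament that defines these cells, had log2 values of 13.06, 13.68 and 13.77 in T3 cultures and 13.21, 13.64 and 13.71 in control cultures. In a mixed culture, a lower share of a cell type and less of an mRNA in each cell cannot be told apart.

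T3 enters cells through membrane transporters, is inactivated by deiodinases, and acts through nuclear receptors that bind DNA as partners of retinoid X receptors. In the oligodendrocyte lineage it is known as a signal that ends precursor division and starts the production of myelin, the lipid-rich sheath around axons whose main proteins are encoded by genes such as Mbp, Mog and Mobp. The arrays report each transcript by a probe set, and all values below are log2 expression values, on which a difference of 1 is a 2-fold change. A difference is T3 minus control, with its standard error from the fit, and a gene is said to have risen or fallen where limma, with the replicate number as a block, gave an adjusted p under 0.05 over all 31042 probe sets. Where the call was lost when the block was dropped or an array or a preparation was left out, the p value without it is given.

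At this threshold 3206 probe sets (10.3%) were higher with T3 and 4444 (14.3%) were lower, out of 31042 tested. With a fold over 1.5 as well, 1384 (4.46%) were higher and 1321 (4.26%) were lower. Without the replicate block the counts were 1751 (5.64%) and 1885 (6.07%), and without any one preparation or array they ranged from 1366 to 3211 higher and from 1453 to 3953 lower. Counted by gene, with the brightest probe set standing for each of 14217 genes, 11.9% were higher and 18.2% lower, which is the background for the gene groups below, and the median difference was −0.024. The 6 arrays had medians of 6.48 to 6.51 and highest values of 14.1 to 14.3. Replicates of a group correlated across probe sets with r of 0.989 to 0.996 in T3 cultures and 0.99 to 0.995 in control cultures. RNA quality can be read from probe sets at the 2 ends of 1 transcript. For beta-actin the 3' end exceeded the 5' end by 0.674, 0.689 and 0.766 with T3 and 0.665, 0.643 and 0.665 in control. For hexokinase the same measure was 1.815, 1.815 and 1.823 with T3 and 2.289, 1.985 and 1.986 in control. For Gapdh it was −0.076, −0.043 and −0.027 with T3 and −0.087, −0.107 and −0.057 in control. The mean was higher with T3 for beta-actin and Gapdh and lower for hexokinase, and their part in the results was not tested.

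Dio3 and Crym, which handle the hormone itself, were among the 12 genes with the largest rise. Dio3, the deiodinase that inactivates T3, had log2 values of 8.28, 10.10 and 10.08 in T3 cultures, against 5.71, 5.40 and 5.44 in control cultures. All 3 T3 arrays lay far above all 3 control arrays, with replicate 1 the lowest of the T3 arrays, and the difference was 3.96 (standard error 0.528, adjusted p = 0.000593). Its control values lay under a log2 value of 6, and since the values carry no detection calls, a fold against so low a level is not given here or for other genes. Crym, a cytosolic protein that binds T3 (mu-crystallin), had values of 11.53, 10.52 and 10.23 with T3 and 7.66, 7.07 and 7.24 in control. Here replicate 1 was the highest array in either group, and Crym rose by 3.44 (standard error 0.154, adjusted p = 6.27e-07). Slco1c1, a membrane transporter of thyroid hormones, moved the other way, with 4.41, 4.40 and 4.28 in T3 cultures and 5.89, 5.81 and 5.91 in control cultures. It fell by 1.51 (standard error 0.178, adjusted p = 0.000305). All its values, with T3 and in control, lay under a log2 value of 6, so whether Slco1c1 was expressed cannot be told.

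Of the receptors, Thrb had values of 10.01, 10.26 and 10.41 with T3 and 8.80, 9.49 and 9.55 in control, and rose by 0.95 (standard error 0.241, adjusted p = 0.0166). Its groups did not overlap, but the call was lost without preparation 3, T3 replicate 2, T3 replicate 3 or preparation 2 (adjusted p of 0.0658 to 0.116). Thra, the receptor with several splice forms, cannot be given a direction, since its brightest probe set was higher with T3 by 0.19 (adjusted p = 0.0463, and 0.187 without the block) while another of its 3 probe sets was called lower. The call of the brightest probe set was lost whenever an array or a preparation was left out (adjusted p of 0.0691 to 0.337). None of the retinoid X receptors passed, with differences of −0.06 for Rxra, 0.09 for Rxrb and 0.01 for Rxrg. Ncoa1, a coactivator of nuclear receptors, had 10.03, 10.03 and 10.26 with T3 and 10.55, 10.47 and 10.74 in control, and fell by 0.48 (standard error 0.0727, adjusted p = 0.00115). Of the 17 measured genes of hormone transport, conversion and reception, 5 were called higher and 3 lower by their brightest probe sets, with Thra counted among the higher, and as few as 2 rises without preparation 2 or preparation 3. By the mean of all probe sets of a gene 4 were called higher. The deiodinases that activate thyroxine were not called, with differences of 0.06 for Dio1 and 0.04 for Dio2.

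**Figure D1:**
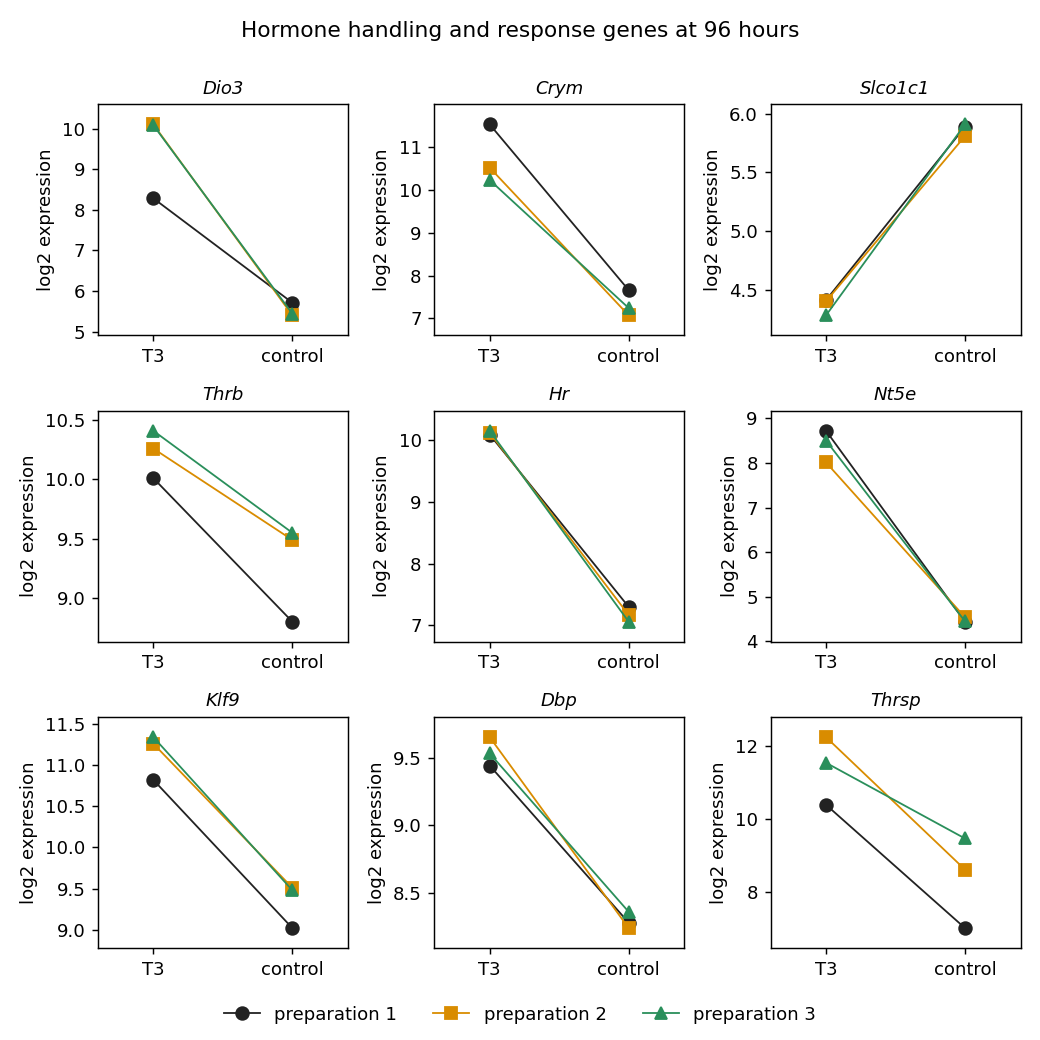
Log2 expression of 9 genes of hormone handling and response at 96 hours, 1 panel a gene. Each point is an array, T3 on the left and control on the right, and each line joins the T3 and control culture of the same preparation. The T3 and control points do not overlap in any panel, and Slco1c1 alone is lower with T3.

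Among 15 measured genes that are known to respond to T3 in brain or liver, 8 rose and 1 fell, and their median difference was 0.60 (as few as 0 falls without preparation 2, preparation 3 or T3 replicate 3). The responses differed in how closely the preparations followed each other. Hr, a corepressor that binds the T3 receptor, had values of 10.09, 10.12 and 10.15 with T3 and 7.30, 7.17 and 7.06 in control, and the pairs differed by 2.79, 2.95 and 3.08. It rose by 2.94 (standard error 0.0708, adjusted p = 2.14e-08). Nt5e, the surface enzyme (CD73) that makes adenosine from AMP, had 8.72, 8.01 and 8.50 in T3 cultures and 4.44, 4.54 and 4.45 in control cultures, and rose by 3.93 (standard error 0.128, adjusted p = 8.07e-08). Thrsp, a lipogenic regulator of liver and fat, varied more, with 10.39, 12.24 and 11.54 in T3 cultures and 7.02, 8.62 and 9.47 in control cultures. Its pairs differed by 3.37, 3.61 and 2.07, so every preparation went up, from different starting levels, and the rise was 3.02 (standard error 0.43, adjusted p = 0.000839).

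Klf9, a transcription factor and direct target of the T3 receptor, had 10.82, 11.26 and 11.34 with T3 and 9.02, 9.51 and 9.48 in control, a rise of 1.80 (standard error 0.156, adjusted p = 5.23e-05). Dbp, a factor at the output of the circadian clock, had 9.44, 9.65 and 9.53 with T3 and 8.28, 8.24 and 8.36 in control and rose by 1.25 (standard error 0.0799, adjusted p = 7.77e-06). The group's other calls were weaker. Me1, which makes NADPH for fatty acid synthesis, rose by 0.84 (adjusted p = 0.00911, and 0.0501 without the block), a call that was lost without preparation 2, T3 replicate 3 or T3 replicate 2 (adjusted p of 0.0502 to 0.144). Itih3, a secreted hyaluronan-binding protein, rose by 0.60 (adjusted p = 0.0462), a call lost without the block (adjusted p = 0.646) and lost in 6 of the 9 fits that left out an array or a preparation, with an adjusted p of up to 0.382 (without preparation 2). Nrgn, a calmodulin-binding protein of neurons, fell by 0.81 (adjusted p = 0.00975), a call lost without the block (adjusted p = 0.127) and lost without preparation 3, T3 replicate 3 or preparation 2 (adjusted p of 0.0518 to 0.066). Of those that did not pass, Atp2a2, the calcium pump, differed by 0.08 (standard error 0.0634, adjusted p = 0.448).

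Klf9 belongs to a family that did not move together. Of 13 measured Krüppel-like factors, 3 rose and 4 fell (2 and 1 without the block, and as few as 1 fall without preparation 2, preparation 3 or T3 replicate 1), and the median difference was 0.00. Klf13 had 9.00, 9.11 and 9.29 in T3 cultures and 8.04, 8.09 and 8.43 in control cultures and rose by 0.95 (standard error 0.11, adjusted p = 0.000271). Klf16 had 7.19, 7.09 and 7.02 with T3 and 7.78, 7.43 and 7.45 in control and fell by 0.45 (adjusted p = 0.00571), a call that was lost without preparation 3 (adjusted p = 0.0625).

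Myelin genes rose almost throughout. Of 15 measured genes of myelin and its membrane, 14 rose and none fell, and the median difference was 2.01, a 4.02-fold difference. The T3 and control arrays did not overlap for 14 of the 15, where they did not overlap for 28.3% of all probe sets. The count was 12 without the block and 11 to 14 without an array or a preparation. Pmp22, a membrane protein better known from peripheral myelin, was the exception, with 10.79, 11.10 and 10.86 in T3 cultures, 10.77, 11.02 and 10.88 in control cultures and a difference of 0.03 (standard error 0.126, adjusted p = 0.909).

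Mog, on the outer surface of the sheath, had 10.72, 11.51 and 11.81 with T3 and 7.05, 7.83 and 7.60 in control. Its pairs differed by 3.67, 3.67 and 4.21, and it rose by 3.85 (standard error 0.113, adjusted p = 4.35e-08), or 14.4-fold. Mobp, a small basic protein of compact myelin, had 12.30, 13.33 and 13.38 in T3 cultures and 9.22, 10.76 and 9.93 in control cultures and rose by 3.03 (standard error 0.141, adjusted p = 7.92e-07). Pllp (plasmolipin) had 12.36, 12.20 and 12.10 with T3 and 10.37, 10.11 and 9.74 in control and rose by 2.15 (standard error 0.104, adjusted p = 1.05e-06). Mag, an adhesion molecule of the layer next to the axon, had 13.10, 13.16 and 13.24 with T3 and 11.64, 11.80 and 11.78 in control, a rise of 1.43 (standard error 0.0813, adjusted p = 3.92e-06). For these 4 genes the spread among T3 arrays was small beside the rise.

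For Mal, Opalin and Ermn the preparations differed widely. Mal, a membrane protein of myelin and of apical transport, had 7.43, 9.95 and 11.60 in T3 cultures and 5.49, 5.83 and 6.34 in control cultures. Opalin, a transmembrane protein of oligodendrocytes, had 6.46, 8.79 and 10.18 with T3 and 4.86, 5.48 and 5.80 in control. Ermn (ermin), a cytoskeletal protein of the mature cell, had 6.62, 8.41 and 9.23 with T3 and 5.02, 5.26 and 5.34 in control. In each, preparation 1 was lowest and preparation 3 highest with T3, all T3 values were above all control values, and the pairs of Mal differed by 1.94, 4.13 and 5.26. The rises were 3.78 for Mal (standard error 0.577, adjusted p = 0.00119), 3.10 for Opalin (standard error 0.483, adjusted p = 0.00132) and 2.88 for Ermn (standard error 0.374, adjusted p = 0.000509), and without the block the adjusted p was 0.0865 for Mal, 0.128 for Opalin and 0.0344 for Ermn.

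Mbp and Cnp, myelin basic protein and an enzyme of the sheath's cytoplasmic channels, rose little. Mbp had 14.23, 14.26 and 14.30 with T3 and 13.91, 13.94 and 13.99 in control, at or near the highest value of each array, and rose by 0.32 (standard error 0.0659, adjusted p = 0.00611). Its call was lost without preparation 2 or preparation 3 (adjusted p of 0.0797 to 0.091). Cnp had 13.98, 14.03 and 14.04 with T3 and 13.81, 13.83 and 13.77 in control and rose by 0.22 (standard error 0.057, adjusted p = 0.02), a call that was lost in 6 of the 9 fits that left out an array or a preparation, with an adjusted p of up to 0.241 (without preparation 3). Cldn11, the tight junction protein of myelin, had 13.83, 13.83 and 13.78 with T3 and 13.24, 13.31 and 13.41 in control and rose by 0.49 (standard error 0.0704, adjusted p = 0.000839). These 3 genes lay near the top of the range of the arrays, and the part of probe saturation was not tested.

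**Figure D2:**
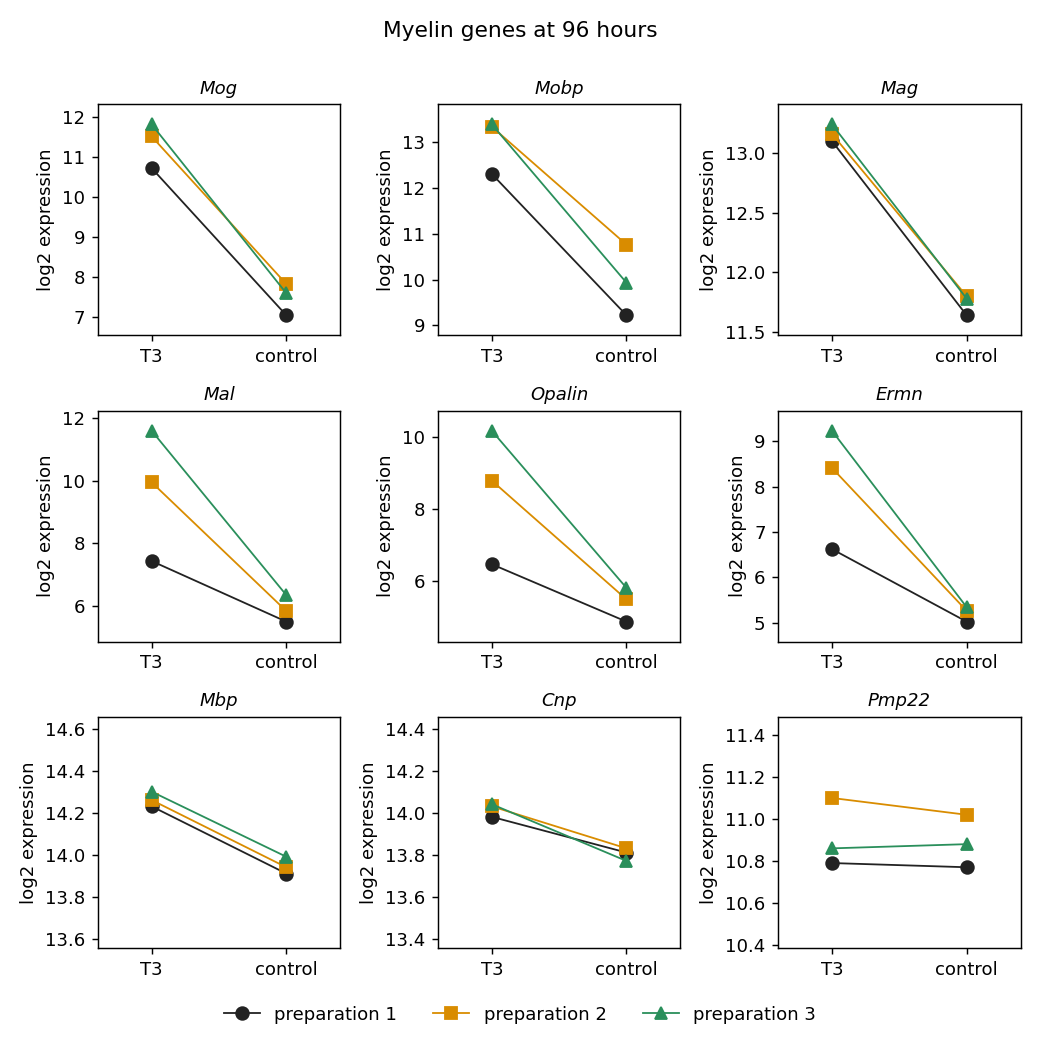
Log2 expression of 9 myelin genes at 96 hours, drawn as for the hormone genes, with T3 on the left and control on the right of each panel. Mog, Mobp and Mag rise by like amounts in the 3 preparations, Mal, Opalin and Ermn rise least in preparation 1, Mbp and Cnp lie near the top of the scale in both groups, and Pmp22 overlaps.

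Other genes of mature oligodendrocytes were split. Of 20 measured, 12 rose and 1 fell, with a median difference of 0.90, and 10 of the calls held without the block and in all 9 fits that left out an array or a preparation. Gpr37, a receptor of the differentiating cell, had 10.99, 11.69 and 12.03 in T3 cultures and 8.05, 8.43 and 8.55 in control cultures and rose by 3.22 (standard error 0.105, adjusted p = 8.07e-08). Ninj2, a surface adhesion protein, had 11.32, 11.01 and 10.85 with T3 and 8.63, 7.70 and 7.12 in control and rose by 3.24 (standard error 0.176, adjusted p = 2.61e-06). Aspa, which splits N-acetylaspartate into acetate for lipid synthesis, had 11.22, 10.84 and 10.90 with T3 and 8.53, 8.35 and 8.24 in control and rose by 2.62 (standard error 0.0979, adjusted p = 1.92e-07). In these 3 genes every T3 array lay far above every control array.

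Septin4, a filament protein of myelin, had 12.19, 12.44 and 12.53 with T3 and 9.41, 9.93 and 10.01 in control, a rise of 2.61 (standard error 0.0924, adjusted p = 1.29e-07). Adamts4, a secreted protease found in mature oligodendrocytes, had 12.42, 12.23 and 12.28 with T3 and 10.99, 11.12 and 11.06 in control and rose by 1.25 (standard error 0.0851, adjusted p = 1.18e-05). Efnb3, an ephrin that inhibits axon growth, fell: it had 6.69, 6.69 and 7.29 in T3 cultures and 7.36, 7.71 and 8.50 in control cultures, a difference of −0.96 (standard error 0.136, adjusted p = 0.000788). Bcas1, which marks early myelinating cells, had 13.55, 13.58 and 13.47 with T3 and 13.69, 13.56 and 13.41 in control and did not pass, with a difference of −0.02 (standard error 0.0895, adjusted p = 0.922). Apod, a lipid carrier, had 10.57, 11.90 and 11.93 with T3 and 10.65, 10.21 and 9.11 in control, was lower with T3 in preparation 1 alone, and did not pass (adjusted p = 0.0766).

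The lipids of myelin need long-chain fatty acids, ceramide and galactose. Of 18 measured genes of this synthesis, 11 rose and none fell, with a median difference of 0.56. The count was 4 without the block and 6 without preparation 2 or 7 without preparation 3. Elovl1, an elongase of very long fatty acids, had 11.90, 11.80 and 11.85 in T3 cultures and 10.47, 10.36 and 10.31 in control cultures and rose by 1.47 (standard error 0.097, adjusted p = 9.79e-06). Cers2, which builds ceramides from them, had 11.13, 11.13 and 11.13 with T3 and 10.27, 10.32 and 10.16 in control and rose by 0.88 (standard error 0.0891, adjusted p = 0.000133). Ugt8, which adds the galactose that makes galactocerebroside, had 12.23, 12.27 and 12.14 with T3 and 11.44, 11.60 and 11.42 in control and rose by 0.73 (standard error 0.0906, adjusted p = 0.000408). The groups of all 3 were well apart. Scd2, a desaturase, had 13.22, 13.18 and 13.36 with T3 and 13.11, 13.12 and 13.28 in control and did not pass (difference 0.08, adjusted p = 0.524).

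Enzymes of cholesterol synthesis rose by small amounts. All 18 measured enzymes had a higher mean with T3, 13 passed, and the median difference was 0.36. Without the block 6 passed, and without preparation 2 or 3, without any T3 array or without control replicate 2 or 3 the count was 8 or 9. Ebp, a sterol isomerase late in the pathway, changed most, with 8.64, 8.84 and 8.72 in T3 cultures and 7.79, 7.26 and 7.10 in control cultures, a rise of 1.35 (standard error 0.191, adjusted p = 0.000828). Sc5d, a sterol desaturase, had 10.96, 10.97 and 11.08 with T3 and 10.31, 10.13 and 10.41 in control and rose by 0.72 (standard error 0.068, adjusted p = 8.77e-05). Cyp51, the lanosterol demethylase, had 12.38, 12.28 and 12.39 with T3 and 11.87, 11.55 and 11.81 in control and rose by 0.61 (standard error 0.0761, adjusted p = 0.00041). Dhcr7, which makes cholesterol in the last step, overlapped, with 11.63, 11.50 and 11.41 with T3 and 11.67, 11.18 and 11.28 in control, and did not pass (difference 0.14, adjusted p = 0.253).

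Of 15 measured genes of sterol sensing and export, 4 rose and 3 fell, and 2 and 0 without the block. Mylip, the ligase that degrades the LDL receptor, had 6.39, 6.68 and 6.42 in T3 cultures and 5.70, 5.84 and 5.59 in control cultures and rose by 0.79 (standard error 0.101, adjusted p = 0.000473). Insig1, which holds the sterol sensor in the endoplasmic reticulum, had 11.58, 11.51 and 11.76 with T3 and 11.13, 10.67 and 11.09 in control and rose by 0.66 (standard error 0.0868, adjusted p = 0.000566). Abca1, the cholesterol exporter, had 10.15, 10.74 and 11.24 with T3 and 11.04, 12.02 and 12.29 in control. It was lower in every pair, by −0.89, −1.28 and −1.05, and fell by 1.07 (adjusted p = 0.0352), a call that was lost without the block (adjusted p = 0.263) and lost in 8 of the 9 fits that left out an array or a preparation, with an adjusted p of up to 0.189 (without preparation 3).

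Surface genes of precursors gave a mixed picture. Of 13 measured, 6 fell and 2 rose, and the median difference was −0.38. Without the block 1 fell, without preparation 2 it was 1, and without preparation 3, T3 replicate 2 or T3 replicate 3 it was 3. Pdgfra, the receptor for the growth factor that drives OPC division, had 12.36, 11.57 and 11.35 in T3 cultures and 12.70, 12.33 and 12.26 in control cultures. It was lower in every pair, by −0.34, −0.76 and −0.91, with overlapping groups, and fell by 0.67 (standard error 0.115, adjusted p = 0.00218), lost without the block (adjusted p = 0.254) and lost without preparation 2 (adjusted p = 0.0658). Cspg4 (NG2), the proteoglycan that marks OPCs, had 8.35, 7.43 and 6.93 with T3 and 9.42, 8.21 and 7.75 in control and fell by 0.89 (standard error 0.117, adjusted p = 0.000563), with an adjusted p of 0.34 without the block. Preparation 1 was the highest for both genes in both groups. Ptprz1, a receptor phosphatase of OPCs, had 11.67, 11.56 and 11.78 with T3 and 12.08, 12.05 and 12.24 in control, did not overlap, and fell by 0.45 (standard error 0.0792, adjusted p = 0.00249), a call that was lost without preparation 2 (adjusted p = 0.0636).

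Emid1 and Cntn1, which the list also held, rose. Emid1, a secreted protein of OPCs, had 9.19, 10.04 and 10.34 with T3 and 7.54, 8.30 and 8.72 in control and rose by 1.67 (standard error 0.168, adjusted p = 0.000128). Cntn1 (contactin), an adhesion molecule of axons and of oligodendrocytes, had 10.68, 10.50 and 10.33 with T3 and 9.69, 9.04 and 9.16 in control and rose by 1.21 (standard error 0.16, adjusted p = 0.000578). Bcan, a matrix proteoglycan, had 12.22, 12.05 and 12.13 with T3 and 12.40, 12.62 and 12.72 in control and did not pass (difference −0.45, adjusted p = 0.0883).

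Among 25 measured transcription factors of the lineage, 3 rose and 9 fell, with 2 and 3 without the block and as few as 1 rise without preparation 3 and 5 falls without preparation 2 or preparation 3. Hes5, a Notch target that holds precursors back from maturing, had 7.72, 6.51 and 7.20 in T3 cultures and 9.30, 8.61 and 9.17 in control cultures and fell by 1.89 (standard error 0.245, adjusted p = 0.000509). Hes1, of the same family, was lower in every pair, by −0.89, −1.02 and −1.12, and fell by 1.01 (standard error 0.131, adjusted p = 0.000516), with an adjusted p of 0.0841 without the block. Sox11, a factor of immature cells, had 6.17, 6.12 and 6.54 with T3 and 6.95, 6.81 and 7.86 in control and fell by 0.93 (standard error 0.15, adjusted p = 0.00157), with 0.0546 without the block. Nkx6-2, a homeobox factor of maturing oligodendrocytes, went the other way, with 9.99, 10.30 and 10.52 with T3 and 8.31, 8.64 and 8.48 in control, a rise of 1.79 (standard error 0.12, adjusted p = 1.03e-05). Myrf, the master regulator of myelin genes, had 11.58, 11.45 and 11.58 with T3 and 11.29, 11.17 and 11.04 in control and rose by 0.37 (standard error 0.0683, adjusted p = 0.00347), a call that was lost without preparation 3 (adjusted p = 0.0931). Olig1 did not pass (difference 0.14, adjusted p = 0.262).

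Genes of DNA replication fell together. Of 27 measured, 26 fell and none rose, and the median difference was −0.81. Without the block 17 fell, and without preparation 2 the count was 12 and without preparation 3 it was 15. The mean log2 value of the list in each array was 8.12, 7.77 and 8.22 with T3 and 8.81, 8.69 and 8.99 in control. Replicate 2 was the lowest T3 array. Rfc3, a subunit of the clamp loader, had 8.19, 7.68 and 8.21 in T3 cultures and 9.07, 8.88 and 9.34 in control cultures and fell by 1.07 (standard error 0.153, adjusted p = 0.000868). Ccne1 (cyclin E1), which starts S phase, had 7.30, 6.63 and 6.79 with T3 and 8.09, 7.60 and 7.96 in control and fell by 0.98 (standard error 0.121, adjusted p = 0.000386). Uhrf1, which copies DNA methylation to the new strand, changed most, with 7.61, 6.86 and 7.97 with T3 and 9.05, 8.61 and 9.31 in control, a fall of 1.51 (standard error 0.338, adjusted p = 0.00892) that was lost without the block (adjusted p = 0.11) and lost without preparation 3 or preparation 2 (adjusted p of 0.0575 to 0.0841). The exception was Fen1, a flap endonuclease, with 8.73, 8.77 and 9.00 with T3 and 8.48, 8.61 and 8.75 in control and a difference of 0.22 (adjusted p = 0.384).

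Genes of mitosis had lower means throughout, with wider spread. All 27 measured were below control, with a median difference of −1.04, and 23 fell at the threshold. The T3 and control arrays did not overlap in 27 of 27, where they did not overlap, in either direction, for 28.3% of all probe sets. That count rested on how preparations were treated: it was 1 without the block, 0 without preparation 2, 2 without preparation 3, T3 replicate 1 or control replicate 2, 3 without control replicate 3, 6 or 8 when the array left out was T3 replicate 2 or T3 replicate 3, and 27 without preparation 1 or control replicate 1. The mean log2 value of the list was 8.43, 7.57 and 8.22 with T3 and 9.10, 8.95 and 9.21 in control, so T3 replicate 2 was the lowest and T3 replicate 1 the nearest to control. Mki67, the proliferation marker Ki-67, had 8.31, 7.46 and 8.46 with T3 and 9.24, 9.27 and 9.50 in control. It was lower in every pair, by −0.93, −1.81 and −1.04, and fell by 1.26 (standard error 0.403, adjusted p = 0.0446), with an adjusted p of 0.19 without the block and a call lost in 7 of the 9 fits that left out an array or a preparation, with an adjusted p of up to 0.25 (without preparation 2).

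Some regulators of the step into S phase changed as well. Of 18 measured, 1 rose and 5 fell, and the calls held in all 9 fits that left out an array or a preparation. Without the block 1 rose and 3 fell. Cdkn1a, the cyclin-dependent kinase inhibitor p21, had 10.14, 10.34 and 10.42 in T3 cultures and 8.98, 9.14 and 9.08 in control cultures and rose by 1.23 (standard error 0.188, adjusted p = 0.00119). Cdkn1c, the related inhibitor p57, had 10.93, 10.74 and 10.64 with T3 and 12.34, 12.06 and 11.89 in control and fell by 1.33 (standard error 0.138, adjusted p = 0.000146). Cdkn1b, the inhibitor p27, had 11.88, 11.98 and 12.12 with T3 and 11.74, 11.82 and 12.03 in control and did not pass, with a difference of 0.13 (standard error 0.0784, adjusted p = 0.279). The 3 members of this inhibitor family thus had 3 different outcomes. Ccnd2 (cyclin D2) was lower in every pair, by −1.39, −1.39 and −0.97, and fell by 1.25 (standard error 0.16, adjusted p = 0.00046), with an adjusted p of 0.0558 without the block. Cdk4, its partner kinase, had 12.02, 11.71 and 11.77 with T3 and 12.44, 12.24 and 12.28 in control and fell by 0.49 (standard error 0.0622, adjusted p = 0.000472).

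**Figure D3:**
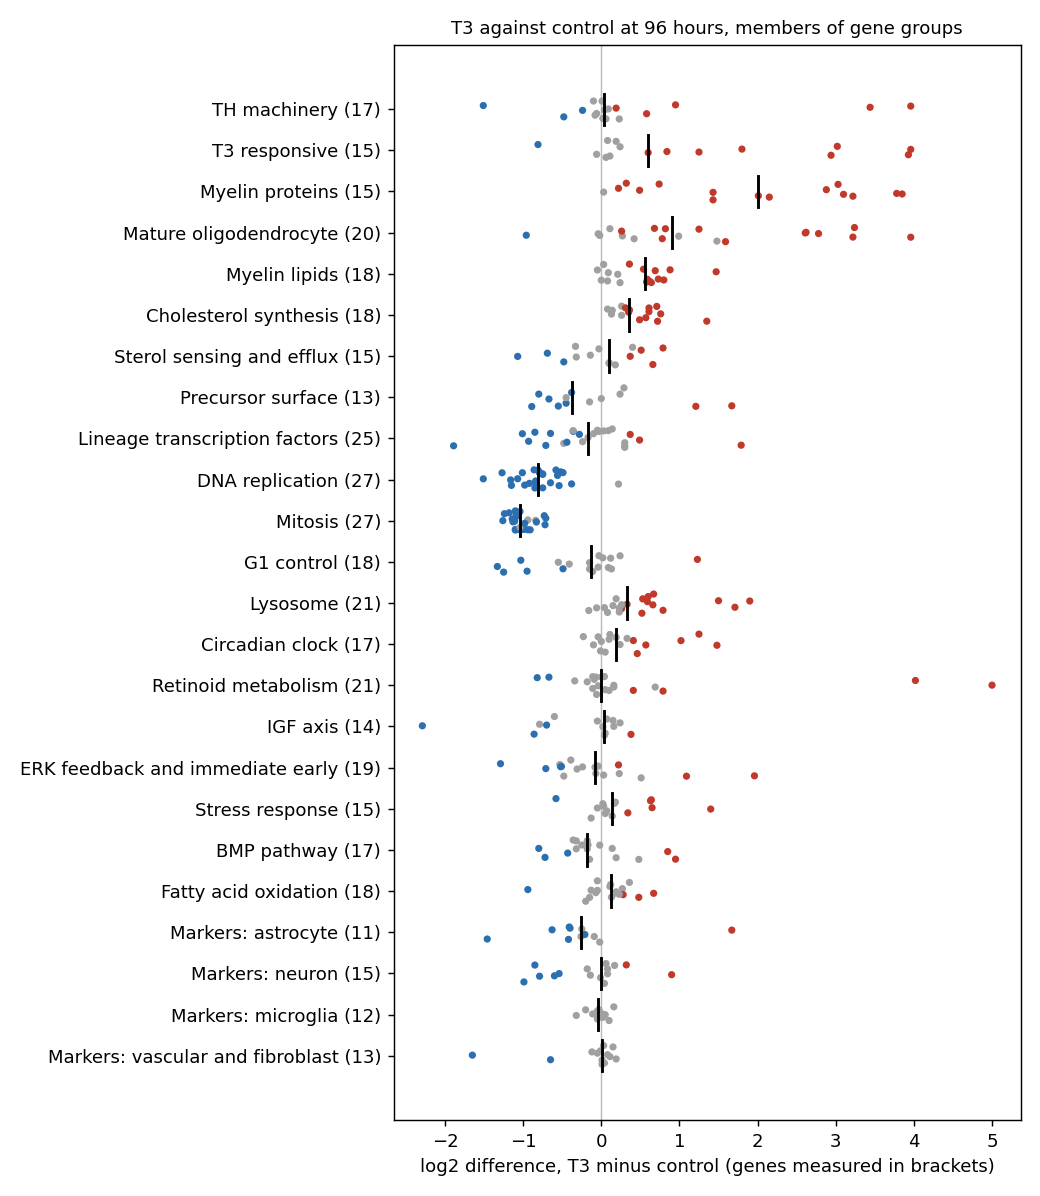
Log2 difference, T3 minus control at 96 hours, of each measured member of 24 gene groups, 1 point a gene, with a bar at each group's median. Points in red rose, points in blue fell and grey points did not pass. Myelin proteins sit highest (median 2.01), and genes of DNA replication and mitosis lie below 0 (medians −0.81 and −1.04).

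Lysosomal genes rose in part. Of 21 measured, 12 rose and none fell, with a median difference of 0.33 and 8 calls that held without the block and in all 9 fits that left out an array or a preparation. Scarb2, the receptor that carries glucocerebrosidase to the lysosome, had 11.33, 11.68 and 11.34 in T3 cultures and 9.60, 9.90 and 9.72 in control cultures and rose by 1.71 (standard error 0.0909, adjusted p = 2.18e-06). Ctsl, a cysteine protease, had 13.20, 13.38 and 13.50 with T3 and 11.28, 11.57 and 11.53 in control, and its pairs differed by 1.92, 1.80 and 1.97. Galc, which degrades the galactocerebroside of myelin, had 8.63, 8.87 and 9.09 with T3 and 7.92, 8.15 and 8.16 in control and rose by 0.79 (standard error 0.0894, adjusted p = 0.00024). Gla, the alpha-galactosidase, had 9.18, 9.31 and 9.07 with T3 and 8.54, 8.58 and 8.43 in control and rose by 0.67 (standard error 0.0629, adjusted p = 8.39e-05). Ctsb, another protease, and Lamp2, a protein of the lysosomal membrane, did not pass, with differences of −0.16 for Ctsb (adjusted p = 0.117) and 0.15 for Lamp2 (adjusted p = 0.184).

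The largest rise among the genes named here was that of a retinoid enzyme. Rpe65, the isomerohydrolase of the visual cycle in the eye's pigment epithelium, had 9.78, 9.93 and 10.31 in T3 cultures and 4.86, 4.99 and 5.16 in control cultures. Its pairs differed by 4.92, 4.94 and 5.14 on the log2 scale (standard error 0.24, adjusted p = 1.02e-06), from control values that were low for these arrays. Aldh1a1, which makes retinoic acid, had 8.28, 10.21 and 10.42 with T3 and 4.88, 6.03 and 5.95 in control. Replicate 1 was lowest in both groups, the pairs differed by 3.40, 4.18 and 4.47, and Aldh1a1 rose by 4.02 (standard error 0.253, adjusted p = 7.25e-06). Rdh10, which makes retinal from retinol, had 8.06, 8.17 and 8.36 with T3 and 7.44, 7.45 and 7.31 in control and rose by 0.79 (standard error 0.125, adjusted p = 0.00139). Rlbp1, a carrier of retinal, was lower in every pair, by −0.60, −0.89 and −0.97, with overlapping groups, and fell by 0.82 (standard error 0.0832, adjusted p = 0.000133), with an adjusted p of 0.335 without the block. In all, 4 of 21 measured genes of retinoid metabolism rose and 2 fell (as few as 1 fall without preparation 2 or preparation 3), their median difference was 0.00, and the receptors Rara and Rarb did not pass, with differences of −0.07 for Rara and −0.18 for Rarb. The shares over all genes were 11.9% higher and 18.2% lower.

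Dct, dopachrome tautomerase of the melanin pathway, had 12.46, 12.06 and 11.49 in T3 cultures and 8.67, 7.37 and 7.78 in control cultures and rose by 4.06 (standard error 0.347, adjusted p = 4.99e-05). Most other genes of pigment cells did not pass. Tyrp1, the related enzyme, had 5.73, 5.32 and 5.29 with T3 and 5.47, 5.62 and 5.33 in control, Mlana, a melanosome protein, had 5.68, 5.67 and 5.70 with T3 and 5.53, 5.70 and 5.40 in control, and neither passed. Pmel, the melanosome fibre protein, differed by 0.04 (standard error 0.186, adjusted p = 0.904), and the pigment list as a whole had 2 rises in 7. Besides Dct this was Mitf, the factor that drives pigment genes, with a difference of 0.49 (adjusted p = 0.0246) and a call lost in 6 of the 9 fits that left out an array or a preparation, with an adjusted p of up to 0.208 (without preparation 3).

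Scg2 (secretogranin II), a protein of secretory granules, had 7.29, 9.64 and 9.65 with T3 and 5.02, 6.57 and 6.31 in control. Replicate 1 was by far the lowest of each group, the pairs differed by 2.27, 3.06 and 3.34, and Scg2 rose by 2.89 (standard error 0.229, adjusted p = 3.17e-05). Of 9 measured genes of secretory granules 2 rose and 2 fell (1 and 0 without the block, and as few as 1 rise without preparation 2, T3 replicate 1, T3 replicate 2, control replicate 2 or control replicate 3 and 0 falls without preparation 2, preparation 3, T3 replicate 3 or control replicate 3), and Chgb, a related granin, did not pass (difference 0.15, adjusted p = 0.69).

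Carbonic anhydrases, which hydrate carbon dioxide, included some of the larger rises. Of 14 measured, 4 rose and 2 fell, with 3 and 0 without the block and as few as 0 falls without preparation 3, T3 replicate 2 or control replicate 1. Car2, the cytosolic form of oligodendrocytes, had 9.82, 10.83 and 11.66 in T3 cultures and 8.12, 7.90 and 7.95 in control cultures and rose by 2.78 (standard error 0.354, adjusted p = 0.000457). Car14, a membrane form, rose by 1.89 by its brightest probe set (standard error 0.12, adjusted p = 7.69e-06) and by 3.48 by another (standard error 0.153, adjusted p = 5.64e-07). Car8, a relative without enzyme activity that binds the IP3 receptor, had 10.39, 10.50 and 10.35 with T3 and 9.04, 8.43 and 8.67 in control and rose by 1.70 (standard error 0.248, adjusted p = 0.000925).

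In the adenosine pathway the rise of Nt5e stood alone. Of 11 measured genes 1 rose and 2 fell, near the shares over all genes of 11.9% higher and 18.2% lower. None of the falls held without the block. Adora2b, an adenosine receptor, was lower in every pair, by −1.01, −0.95 and −1.07, while its groups of 6.81, 7.84 and 7.96 with T3 and 7.81, 8.79 and 9.03 in control overlapped. It fell by 1.01 (standard error 0.105, adjusted p = 0.000148), with an adjusted p of 0.149 without the block. Entpd2, an ectonucleotidase that acts on ATP, was lower by −0.80, −1.10 and −1.22 in the pairs and fell by 1.04 (standard error 0.191, adjusted p = 0.00322), with 0.284 without the block.

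Igfbp2, a binding protein that limits insulin-like growth factors, had 9.95, 9.03 and 9.17 in T3 cultures and 11.82, 11.63 and 11.58 in control cultures and fell by 2.29 (standard error 0.289, adjusted p = 0.000432). Igf1r, the receptor of these factors, had 6.30, 6.27 and 6.52 with T3 and 7.17, 6.89 and 7.12 in control and fell by 0.70 (standard error 0.0957, adjusted p = 0.000678). Of 14 measured genes of this axis 3 fell and 1 rose, with a median difference of 0.03 (as few as 0 rises without preparation 2, preparation 3, T3 replicate 1, T3 replicate 2 or control replicate 2). Over all genes 18.2% were lower and 11.9% higher, and the counts of this axis were near these shares. Among imprinted genes that affect growth, 4 of 9 fell and 2 rose, with 3 falls and 0 rises without the block, and as few as 0 rises without preparation 2, preparation 3, T3 replicate 2 or control replicate 3. Mest, an enzyme of the hydrolase fold, had 7.93, 7.57 and 8.08 with T3 and 9.57, 9.52 and 9.79 in control, and Cdkn1c, given above, belongs here as well. Ndn (necdin), a growth suppressor of neurons, was lower by −0.43, −0.61 and −0.72 in the pairs and fell by 0.59 (standard error 0.0892, adjusted p = 0.00117), with an adjusted p of 0.156 without the block. Igf2 and H19, neighbours at an imprinted locus, had differences of 0.16 (adjusted p = 0.17) for Igf2 and 0.32 (adjusted p = 0.0114, and 0.0579 without the block, a call lost in 5 of the 9 fits that left out an array or a preparation, with an adjusted p of up to 0.18 (without preparation 3)) for H19.

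Of 19 measured genes of ERK feedback and the immediate early response, 3 rose and 4 fell, with 1 and 1 without the block and as few as 1 rise without preparation 2, T3 replicate 1, T3 replicate 2 or T3 replicate 3 and 2 falls without preparation 2. The counts of 3 and 4 were near the shares over all genes, 11.9% higher and 18.2% lower. Fos, an immediate early transcription factor, had 10.37, 10.52 and 10.03 in T3 cultures and 7.41, 8.87 and 8.78 in control cultures. The lowest control array was replicate 1, and Fos rose by 1.96 (standard error 0.286, adjusted p = 0.000946). Etv5, a target of FGF and PDGF signalling, had 7.44, 6.89 and 7.26 with T3 and 8.61, 8.28 and 8.57 in control and fell by 1.29 (standard error 0.174, adjusted p = 0.000643). Jun and Egr1 did not pass, with differences of 0.51 (adjusted p = 0.0975) for Jun and −0.48 (adjusted p = 0.255) for Egr1.

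Genes of the circadian clock that rose included Npas2, a partner of Bmal1, with 6.20, 7.04 and 7.24 with T3 and 5.28, 5.32 and 5.46 in control, a rise of 1.48 (standard error 0.208, adjusted p = 0.000796). Bhlhe40, a repressor of the clock, rose by 1.02 (standard error 0.145, adjusted p = 0.000832), with an adjusted p of 0.0644 without the block. In all 6 of 17 clock genes rose, 2 without the block and 3 without preparation 2, and none fell. The core repressors Cry1 and Cry2 differed by −0.04 and −0.01 and did not pass.

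In signalling by BMPs, Smad7, an inhibitor of the pathway, had 8.78, 8.64 and 8.53 with T3 and 7.56, 7.58 and 7.96 in control and rose by 0.95 (standard error 0.141, adjusted p = 0.00104). Bambi, a decoy receptor, had 8.49, 8.59 and 8.76 with T3 and 7.82, 7.58 and 7.89 in control and rose by 0.85 (standard error 0.121, adjusted p = 0.000816). Bmp7, a ligand, had 6.08, 5.75 and 5.75 with T3 and 6.82, 6.47 and 6.70 in control and fell by 0.80 (standard error 0.136, adjusted p = 0.00202). Of 17 measured genes 2 rose and 3 fell (as few as 1 fall without preparation 3). These counts were near the shares over all genes, 11.9% higher and 18.2% lower. Sfrp1, a secreted inhibitor of Wnt proteins, had 8.25, 7.74 and 8.14 with T3 and 9.27, 9.22 and 9.89 in control. It fell by 1.42 (standard error 0.186, adjusted p = 0.000546). Of 10 Wnt feedback genes 2 fell (as few as 1 fall without preparation 3, T3 replicate 3 or control replicate 3). That was near the 18.2% of all genes that were lower.

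In the stress response 5 of 15 genes rose and 1 fell (2 and 1 without the block, and as few as 3 rises without preparation 2, preparation 3, T3 replicate 2, control replicate 2 or control replicate 3 and 0 falls without preparation 2 or preparation 3), among them Ddit3 (CHOP), a factor of the unfolded protein response, with 8.50, 8.64 and 8.64 with T3 and 7.76, 8.05 and 8.09 in control, a rise of 0.63 (standard error 0.103, adjusted p = 0.00172). Hspa5, the main chaperone of the endoplasmic reticulum, had a difference of 0.03 (adjusted p = 0.802). Of 18 measured genes of fatty acid oxidation 3 rose and 1 fell, 1 and 1 without the block, and as few as 1 rise without preparation 2 or T3 replicate 2 and 0 falls without preparation 2 or preparation 3. The shares over all genes were 11.9% higher and 18.2% lower. Acadvl, which starts the oxidation of long chains, had 9.70, 10.05 and 9.87 with T3 and 9.04, 9.34 and 9.24 in control and rose by 0.67 (standard error 0.0654, adjusted p = 0.000112).

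Several of the largest falls lay outside the groups above. Cpxm1, a secreted carboxypeptidase-like protein, had 5.74, 6.06 and 6.11 in T3 cultures and 7.86, 8.57 and 8.71 in control cultures and fell by 2.41 (standard error 0.193, adjusted p = 3.32e-05). Apoc1, an apolipoprotein, had 5.59, 6.40 and 6.27 with T3 and 7.33, 8.18 and 8.33 in control and fell by 1.86 (standard error 0.19, adjusted p = 0.000137). Sncaip (synphilin-1), a partner of alpha-synuclein, was lower by a near equal step in every pair, −1.68, −1.76 and −1.93, and fell by 1.79 (standard error 0.0821, adjusted p = 7.38e-07). Kcnab1, a subunit of potassium channels, had 5.73, 5.14 and 5.35 with T3 and 6.81, 7.20 and 7.60 in control and fell by 1.80 (standard error 0.249, adjusted p = 0.000732). Smarca1, a chromatin remodeller, had 6.19, 4.92 and 5.40 with T3 and 7.49, 6.77 and 7.14 in control and fell by 1.63 (standard error 0.147, adjusted p = 6.46e-05). The 12 largest falls lay between −2.41 for Cpxm1 and −1.62 for Fam210b, a mitochondrial membrane protein, and the 12 largest rises between 3.44 for Crym and the value of Rpe65.

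Of the 12 largest rises 3 were in genes not yet named. Slc12a7, a potassium-chloride cotransporter, had 10.08, 9.29 and 9.94 in T3 cultures and 5.96, 6.20 and 6.18 in control cultures and rose by 3.66 (standard error 0.173, adjusted p = 8.66e-07). Fgl2, a fibrinogen-like protein of immune regulation, had 6.96, 7.57 and 7.06 with T3 and 3.49, 3.99 and 3.67 in control and rose by 3.48 (standard error 0.345, adjusted p = 0.000119). Ppp1r14a, an inhibitor of myosin phosphatase counted with the mature oligodendrocyte genes, had 9.37, 10.32 and 10.41 with T3 and 5.82, 6.36 and 6.06 in control and rose by 3.96 (standard error 0.2, adjusted p = 1.57e-06).

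Markers of other cells that the cultures could hold moved as follows. Of 11 astrocyte genes 6 fell and 1 rose, with 1 and 1 without the block and 2 or 3 falls whenever an array or a preparation was left out. The mean log2 value of the list was 10.18, 10.81 and 10.87 with T3 and 10.56, 10.97 and 11.01 in control. Aldh1l1, a folate enzyme of astrocytes, had 8.36, 8.99 and 9.08 in T3 cultures and 9.74, 10.51 and 10.56 in control cultures and fell by 1.46 (standard error 0.179, adjusted p = 0.000386). Slc1a2 and Slc1a3, the astrocyte glutamate transporters, parted: Slc1a2 had 6.79, 7.74 and 7.86 with T3 and 5.86, 5.89 and 5.63 in control and rose by 1.67 (standard error 0.223, adjusted p = 0.000599). Slc1a3 had 11.91, 12.49 and 12.52 with T3 and 12.79, 12.97 and 13.04 in control and fell by 0.63 (standard error 0.118, adjusted p = 0.00372), with an adjusted p of 0.103 without the block. Gfap differed by −0.02 (standard error 0.0726, adjusted p = 0.915). The part of astrocytes in the falls above was not tested.

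Of 15 neuronal genes 5 fell and 2 rose (3 and 0 without the block, and as few as 0 rises without preparation 2). Dcx (doublecortin), of young neurons, had 9.36, 8.75 and 9.40 with T3 and 10.46, 9.68 and 10.33 in control and fell by 0.99 (standard error 0.154, adjusted p = 0.00131), while Tubb3, a neuronal tubulin, overlapped and differed by −0.01 (standard error 0.172, adjusted p = 0.969). In limma none of 12 microglial genes and none of 4 Schwann cell genes passed, and 0 and 0 microglial and 1 and 0 Schwann cell genes were higher and lower at an unadjusted p under 0.05. The microglial list had mean log2 values of 5.15, 5.42 and 5.25 with T3 and 5.07, 5.68 and 5.19 in control. Of 13 vascular and fibroblast genes 2 fell (as few as 1 fall without preparation 1, preparation 2, preparation 3, T3 replicate 1, T3 replicate 2, T3 replicate 3, control replicate 1 or control replicate 3), led by Tagln (transgelin), an actin-binding protein of smooth muscle, with 9.23, 9.47 and 9.30 with T3 and 10.79, 11.22 and 10.92 in control, a fall of 1.65 (standard error 0.211, adjusted p = 0.000477). The count of 2 in 13 was near the 18.2% of all genes that were lower.

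To ask which of these changes belonged to the later time, the T3 difference at 96 hours was set against that at 48 hours in a fit of all 24 arrays. It passed for 709 probe sets (2.28%), with a more positive difference at 96 hours in 547 (1.76%) and a more negative one in 162 (0.522%). These calls depended on the pairing and on preparation 2: without the block 15 and 0 passed, and without preparation 2 it was 1 and 0. No list member passed without the block.

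Several myelin genes had a larger T3 difference at the later time. The test passed for 7 of 15 myelin genes and for 8 of 20 other genes of mature oligodendrocytes, and for 7 of 21 lysosomal genes. The median T3 difference of the myelin genes was 0.36 at 48 hours and 2.01 at 96 hours. Mal had a T3 difference of 0.07 at 48 hours and 3.78 at 96 hours (adjusted p = 0.00592 for the change between times). Ermn had −0.26 at 48 hours and 2.88 at 96 hours (adjusted p = 0.00124), and Car2 −0.20 at 48 hours and 2.78 at 96 hours (adjusted p = 0.00124). Mobp by contrast had 2.57 at 48 hours and 3.03 at 96 hours and did not pass (adjusted p = 0.693). Fgl2, outside the lists, had 0.27 at 48 hours and 3.48 at 96 hours (adjusted p = 0.000589, and 0.0188 without the block).

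Of the 15 T3-responsive genes none passed this test in limma, and 6 had an unadjusted p under 0.05. Nt5e had T3 differences of 3.95 at 48 hours and 3.93 at 96 hours, with a change of −0.02 (standard error 0.348). Klf9 had 1.94 at 48 hours and 1.80 at 96 hours, a change of −0.13 (standard error 0.209), and Crym 3.42 at 48 hours and 3.44 at 96 hours, a change of 0.02 (standard error 0.24). Dio3 had 2.12 at 48 hours and 3.96 at 96 hours, a change of 1.84 whose standard error of 0.654 leaves its size unsettled (adjusted p = 0.164). Among falls, Igfbp2 had −0.80 at 48 hours and −2.29 at 96 hours (adjusted p = 0.0223), and Adgra1, an adhesion receptor, 0.19 at 48 hours and −1.50 at 96 hours (adjusted p = 0.0146). Both calls between times were lost without the block (adjusted p of 0.413 for Igfbp2 and 0.465 for Adgra1). The fall of Adgra1 against control at 96 hours was lost without preparation 3 (adjusted p = 0.0618). The mitosis list had a median T3 difference of −0.42 at 48 hours, where 26 of its genes fell (5.51% of all probe sets did). Without the block 0 of them passed in limma at 48 hours (24 were lower at an unadjusted p under 0.05), and over all probe sets 79 were called lower in place of 1711. None of its genes passed the test between times (3 at an unadjusted p under 0.05).

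**Figure D4:**
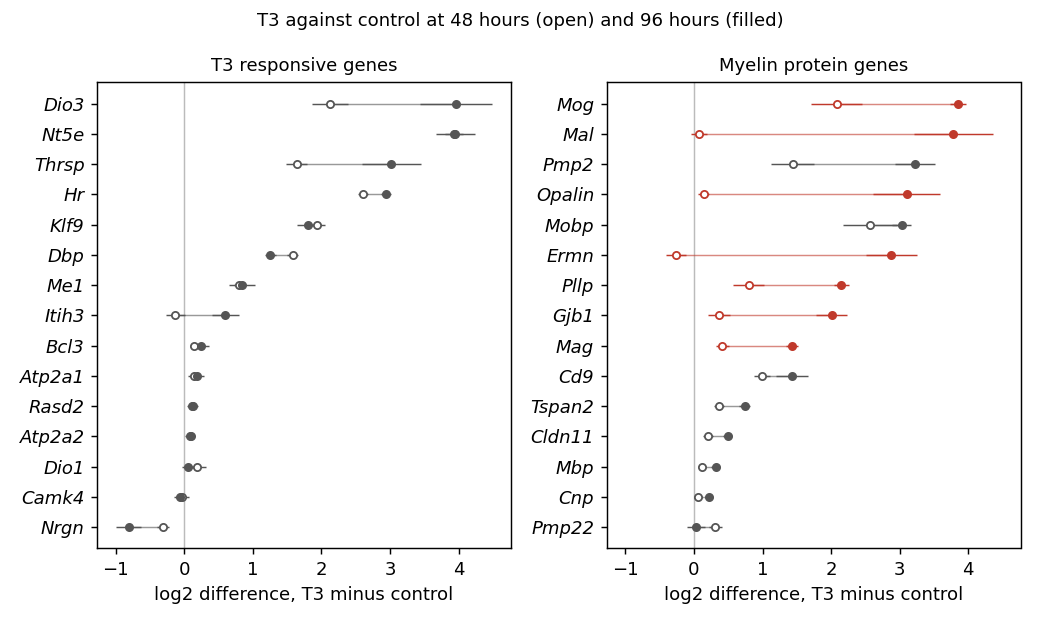
T3 minus control, in log2, at 48 hours (open circles) and at 96 hours (filled circles) for members of the T3-responsive and myelin groups, with error bars of 1 standard error. Genes whose 2 differences passed the test between times are drawn in red. The T3-responsive genes are all grey, and 7 of the 15 myelin genes are red.

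T3 and quetiapine, an antipsychotic drug, were compared directly at 96 hours. The difference itself does not use the control arrays, but they enter the fit's estimates of spread and of the preparations. Of all probe sets 1898 (6.11%) were higher with T3 and 1721 (5.54%) lower, and 572 and 245 without the block. Without preparation 2 the counts were 682 and 171, and without preparation 3 they were 667 and 202. The doses, 45 nM and 1 μM, were those of the study.

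Of the 32 lists, the T3-responsive genes had the highest median difference. This list was picked for its response to T3, with earlier results of these data known, so its rank is a description and not a test. Of 15 genes 8 were higher with T3, and 1 was lower (6 and 0 without the block), with a median difference of 0.95. Nt5e, a member, averaged 8.41 ± 0.364 in T3 cultures and 4.25 ± 0.0928 in quetiapine cultures (SD, n = 3 each), a difference of 4.15 (standard error 0.128, adjusted p = 1.3e-07). Outside the list, Scg2 averaged 8.86 ± 1.36 with T3 and 4.28 ± 0.591 with quetiapine, a difference of 4.58 (standard error 0.229, adjusted p = 2.96e-06), and Crym 10.76 ± 0.681 with T3 and 6.88 ± 0.277 with quetiapine, a difference of 3.88 (standard error 0.154, adjusted p = 6.97e-07). Rpe65 and Dct, also outside it, were higher with T3 by 4.21 (adjusted p = 6.42e-06) and 4.58 (adjusted p = 3.76e-05). Quetiapine minus control, in limma, was −1.69 for Scg2 (adjusted p = 0.000855) and 0.79 for Rpe65 (adjusted p = 0.0486). It did not pass for Nt5e, Crym or Dct.

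Myelin genes differed in part between the 2 compounds. Of 15, 6 were higher with T3 and none lower (4 higher without the block), and the median difference was 0.62, next below that of the T3-responsive genes among the 32 lists. Mobp averaged 13.00 ± 0.612 with T3 and 12.91 ± 0.576 with quetiapine, a difference of 0.10 (standard error 0.141, adjusted p = 0.731), and Mag 13.17 ± 0.0725 with T3 and 13.19 ± 0.109 with quetiapine, a difference of −0.02 (standard error 0.0813, adjusted p = 0.899). Mog was higher with T3 by 1.03 (standard error 0.113, adjusted p = 0.000343), a call lost without the block (adjusted p = 0.197). Pmp22, which T3 left near control, was among the 6 with 0.71 (standard error 0.126, adjusted p = 0.00573), a call lost without preparation 2 or 3 (adjusted p of up to 0.105).

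Sterol enzymes went the other way. Of 18 cholesterol genes 16 were lower with T3 (11 without the block) and the median difference was −0.63. Fdft1, squalene synthase, differed by −0.91 (standard error 0.101, adjusted p = 0.000374) and Cyp51 by −0.62 (standard error 0.0761, adjusted p = 0.000686). Abca1, the exporter, was higher with T3 than with quetiapine, by 1.27 (standard error 0.323, adjusted p = 0.0313), though its mean with T3 was below that in control. The call against quetiapine was lost without preparation 3 (adjusted p of up to 0.229) and without the block (adjusted p = 0.294). Of 21 lysosomal genes 8 were higher with T3 (4 without the block), led by Lipa, the acid lipase, with 1.73 (standard error 0.119, adjusted p = 2.22e-05).

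Cell cycle genes were compared in the same way. Of 27 DNA replication genes 17 were lower with T3 than with quetiapine, with a median difference of −0.56, though only 1 passed without the block. None of the 27 mitosis genes passed in limma (3 at an unadjusted p under 0.05), at a median difference of −0.42. Cdkn1a was higher with T3, by 1.02 (standard error 0.188, adjusted p = 0.00694), a call lost without preparation 2 (adjusted p of up to 0.108) and without the block (adjusted p = 0.0506). Cdkn1c was lower with T3, with a difference of −1.45 (standard error 0.138, adjusted p = 0.000155). Cyp3a23-3a1, a drug-metabolising cytochrome, differed by −1.63 (standard error 0.14, adjusted p = 7.98e-05) and had 4.33, 4.85 and 5.09 with T3 and 4.45, 4.49 and 4.50 in control.

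**Figure D5:**
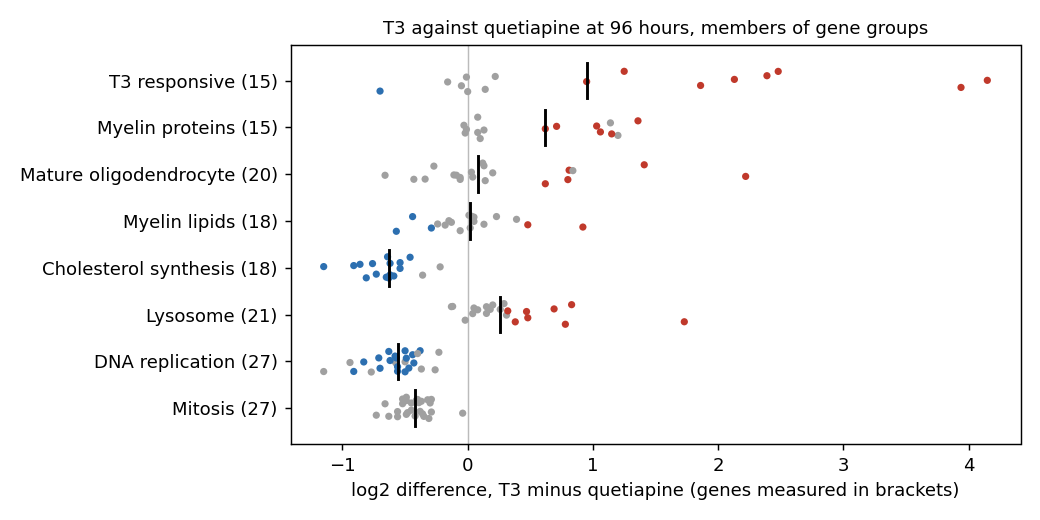
Log2 difference, T3 minus quetiapine at 96 hours, of each measured member of 8 gene groups, 1 point a gene, with a bar at each median. Red points were higher with T3, blue points lower and grey points did not pass. T3-responsive genes lie to the right (median 0.95) and cholesterol genes to the left (median −0.63).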

How the data were processed

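Total RNA of 24 cultures, 3 in each of 8 conditions, was hybridised to Affymetrix rat expression arrays. The deposited log2 values were computed by the authors with RMA, and their processing notes also name limma, with versions and genome build not given in the sources used here. RMA corrects background and sets all arrays to 1 distribution, so a shift of all mRNAs together would not be seen. No sequence was printed, and promoter motifs were not analysed here.

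Of 31099 probe sets, 57 controls were left out. Of the 31042 tested, 20826 had 1 gene symbol in the platform annotation, 436 several and 9780 none, and genes were named only from those with 1. Counts by gene use the probe set with the highest mean over the 24 arrays.

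Differences were tested with limma 3.58.1 in R 4.3.3 (lmFit, eBayes), as group means of the 12 arrays at 96 hours with the replicate number as a block, with Benjamini-Hochberg adjustment. The time contrast used all 24 arrays with replicate by time as the block. The design text says that each preparation supplied every condition. Deviations from group means correlated between same-numbered T3 and control arrays with r of 0.591 to 0.69, and between differently numbered ones with −0.534 to 0.0277. With the block, differences in level between the 3 preparations are taken out. The p-values measure how far the differences between conditions varied from preparation to preparation, pooled over the conditions in the fit.

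Members and lists were chosen with earlier results of these data known. The 32 lists held 541 genes, of which 488 were measured. Genes were named as 4 known T3 targets (Klf9, Hr, Dbp and Nt5e), the 12 largest rises and 12 largest falls (fold over 1.5, groups apart, mean log2 value of at least 6 in the higher group), list members that changed most or had the highest mean among those that did not pass, and the 5 largest differences from 48 hours and from quetiapine. Genes named beyond this were chosen after their values were seen. The fits were run on simulated data with preparation effects built in. That run checks the code and cannot show how the real calls depend on the block. Alternatives dropped the block, arrays or preparations, centred the arrays, filtered low values, and changed the variance trend, the arrays in the fit and the probe sets of a gene.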

Additional observations from a re-analysis of the deposited data

Results flagged for a closer look

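The T3 difference at 96 hours was set against that at 48 hours by an interaction contrast in limma. Of the 141 named probe sets 30 passed at an adjusted p under 0.05, from 0.000589 to 0.043, where 2.28% of all probe sets passed. Some were named because they passed this test or changed most at 96 hours, so their number is a description and not a test. Each value is the T3 difference at 96 hours minus that at 48 hours, on the log2 scale. Of the 30, 1 also passed without the replicate block, 20 without preparation 1, 0 without preparation 2 and 20 without preparation 3.

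In genes of myelin the value was 3.14 for Ermn, 1.01 for Mag, 3.71 for Mal, 1.77 for Mog, 2.95 for Opalin and 1.35 for Pllp. In other genes of the oligodendrocyte lineage it was 0.95 for Adamts4, 1.01 for Aspa, 2.98 for Car2, 1.01 for Cntn1, 1.97 for Gpr37, 1.16 for Nkx6-2, 2.98 for Ppp1r14a and 1.69 for Septin4. Among genes of lipid synthesis and the lysosome it was 0.71 for Cers2, 0.86 for Ctsl, 0.95 for Elovl1, 0.72 for Galc, 1.21 for Scarb2 and 0.61 for Ugt8. Outside these groups the T3 difference was more positive at 96 hours by 2.21 for the other probe set of Car14, 1.42 for the brightest probe set of Car14, 3.22 for Fgl2 and 1.34 for Rpe65. It was more negative at 96 hours in the remaining genes, with −1.69 for Adgra1, −1.38 for Cpxm1, −0.86 for Fam210b, −1.49 for Igfbp2, −0.83 for Mest and −0.84 for Sncaip.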

How the results depend on the processing

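The replicate number, which marks a shared cell preparation, moved the counts over all probe sets by over 1.5 times when it was dropped as a block. Without the replicate block the counts with T3 against control were 1751 higher and 1885 lower, in place of 3206 and 4444, against quetiapine 572 and 245, in place of 1898 and 1721, and between 96 and 48 hours 15 and 0, in place of 547 and 162. Without 1 array or preparation the counts ranged from 1366 to 3211 higher and from 1453 to 3953 lower against control. Without 1 preparation they ranged from 667 to 2058 and from 171 to 2207 against quetiapine, and from 1 to 561 and from 0 to 186 between the times. A fold over 1.5 left 1384 higher and 1321 lower. Of the genes in the lists 121 rose and 119 fell, 75 and 46 without the block, and 74 to 135 and 50 to 117 without an array or a preparation. Of 107 named probe sets that passed, 78 passed in every fit that tested them, 21 were lost without the block and 0 changed sign. Many of these were named for their large changes or after their values were seen, so they do not stand for the calls over all probe sets. Centring the arrays, a filter on low values, a variance trend, the 6 arrays alone, all 24 arrays and the mean of a gene's probe sets kept the list totals within 1.5 times. Centring for the comparisons with quetiapine and between times was added after seeing the data. The causes were not tested.

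Changes of sign met only genes that had not passed. Without an array or a preparation the difference ranged from −0.08 to 0.07 for Bcas1, −0.01 to 0.38 for Chgb, −0.03 to 0.04 for Cry2, −0.03 to 0.19 for Dio1, −0.06 to 0.05 for Gfap, −0.14 to 0.27 for Pmel, −0.08 to 0.12 for Pmp22, −0.14 to 0.06 for Rara, −0.12 to 0.01 for Rxra, −0.16 to 0.17 for Rxrg, −0.16 to 0.21 for Tubb3 and −0.17 to 0.11 for Tyrp1. With centred arrays Cry2 was at 0.01. With 3 arrays a group, their number limits the precision, and a p that missed the threshold does not show that levels were equal.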
